A study of Mus musculus with 12 samples.

Results

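The genes described here are 7 chemokine receptors of macrophages, Cxcr4, Ccr1, Ccr2, Ccr3, Ccr7, Ccrl2 and Cx3cr1, followed across 4 groups of bone marrow-derived macrophages (BMDMs). They were taken by symbol, through a GENCODE annotation of the mouse genome build GRCm38, from a count table of 48526 genes, and all 7 passed the filter on low counts that kept 15523 genes. Total RNA was sequenced from BMDMs, which are macrophages grown from bone marrow cells of the femur and tibia for 6 d in medium conditioned by L929 cells, a source of macrophage growth factor. The WT UT group was HSS9+/+ cells given PBS for 6 hr, and the WT LPS group was HSS9+/+ cells given lipopolysaccharide (LPS), a component of the bacterial outer membrane, for 6 hr. The KO UT and KO LPS groups were cells of mice homozygous for the HSS9 KO, a germline deletion of an enhancer upstream of Tnf, treated in the same 2 ways. By the methods of the study the mice were male and 7 to 10 weeks old, wild-type C57BL/6 mice were purchased, and KO mice were bred from homozygous pairs, whereas the labels call the HSS9+/+ mice littermates, so a shared genetic background is not assured. Each group had 3 libraries. Nothing in the sources used here says whether the libraries of a group came from separate mice, so p-values measure the spread between these libraries only, which may be technical.

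Chemokine receptors are membrane proteins that couple to inhibitory G proteins and steer cells along gradients of small secreted proteins, the chemokines. CXCR4 binds CXCL12 and holds immature cells in the bone marrow, CCR2 lets monocytes leave it and enter inflamed tissue, and CX3CR1 marks patrolling monocytes and several resident macrophages. CCR1 and CCR3 bind inflammatory CC chemokines, CCR7 guides dendritic cells to lymph nodes, and CCRL2 is an atypical receptor that binds chemerin without coupling to G proteins.

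The deletion cannot be read in these genes, so Tnf was used as its readout. Tnf, the gene of tumor necrosis factor alpha, was at 14.8 to 16.2 CPM in WT UT and at 9.10 to 10.5 CPM in KO UT, where CPM is the count brought to a common library size. After LPS it was at 826 to 938 CPM in WT and at 422 to 450 CPM in KO, and the genotypes did not overlap in either treatment. Library totals ranged from 26154533 to 36423921 counts. The summed level of 8 macrophage markers was between 24740 and 33820 CPM in every library, and none of the 8 was at or under 3 counts throughout a group. Lyz2, lysozyme, made up most of the sum, at 18510 CPM on average in WT LPS and 27340 CPM in KO UT. Other markers moved with LPS beneath it. In WT, Mertk went from 71.2 to 13.9 CPM on average and Fcgr1 from 266.9 to 1626 CPM. Small structured RNAs took up a share of counts that differed between the UT genotypes without overlap, 3.00% to 3.25% in WT UT and 6.64% to 7.98% in KO UT. It was 4.04% to 6.89% in WT LPS and 3.23% to 3.43% in KO LPS.

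Upstream sequences are shown for the 4 receptors called in the same direction with LPS in WT and KO, 3 higher and 1 lower. Ccr7 was also higher after LPS in both genotypes but called in neither, and Ccr2 was lower in both but called in WT alone. Each is the 250 bases before a RefSeq transcription start, 5′ to 3′ on the strand of the gene, in build GRCm38.p6. Capitals mark matches to a short list of motifs searched on both strands, which were the sites of NF-kappaB, AP-1, PU.1 and NRF1, a TATA box, a GC box and the interferon response element. The NRF1 motif was added to the list after the sequences had been seen.
Cxcr4 (chr1:128592300-128592549, minus strand): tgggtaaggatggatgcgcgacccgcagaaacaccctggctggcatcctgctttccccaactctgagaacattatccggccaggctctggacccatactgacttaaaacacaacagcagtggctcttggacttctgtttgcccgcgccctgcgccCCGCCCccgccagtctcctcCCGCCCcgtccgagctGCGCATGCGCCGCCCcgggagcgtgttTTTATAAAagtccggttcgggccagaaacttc
Ccrl2 (chr9:111057519-111057768, minus strand): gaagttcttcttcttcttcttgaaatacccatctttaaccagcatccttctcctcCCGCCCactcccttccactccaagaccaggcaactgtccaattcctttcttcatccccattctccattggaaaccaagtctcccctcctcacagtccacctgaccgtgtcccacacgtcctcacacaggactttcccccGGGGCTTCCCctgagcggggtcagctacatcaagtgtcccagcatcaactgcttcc
Ccr1 (chr9:123968693-123968942, minus strand): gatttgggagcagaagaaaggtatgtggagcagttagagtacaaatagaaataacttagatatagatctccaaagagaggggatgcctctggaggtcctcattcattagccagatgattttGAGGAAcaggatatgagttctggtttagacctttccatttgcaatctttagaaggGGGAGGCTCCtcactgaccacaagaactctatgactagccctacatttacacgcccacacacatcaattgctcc
Ccr3 (chr9:124021721-124021970, plus strand): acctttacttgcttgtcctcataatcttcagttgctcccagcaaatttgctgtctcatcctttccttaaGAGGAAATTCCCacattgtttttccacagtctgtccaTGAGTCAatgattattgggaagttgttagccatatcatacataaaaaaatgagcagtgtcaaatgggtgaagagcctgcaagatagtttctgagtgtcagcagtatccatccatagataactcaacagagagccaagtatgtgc

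RefSeq windows were found for 6 of the 7 receptors, and Ccr7 had no entry. The upstream sequence of Cxcr4 was rich in CpG, with 19 of these dinucleotides and a GC content of 61.2%, whereas Ccr1 had 1, Ccr3 had 0 and Ccrl2 had 5. Ccr2, which was also lower after LPS in both genotypes, had 1 CpG and a GC content of 37.2%, and Cx3cr1 had 4 CpG. At least 19 CpG were present in 19.7% of the 32851 windows of the table. Cxcr4 held a TATA box (letters TATAAA) 25 to 30 bases before the start, matched in overlapping places on both strands, together with 3 GC boxes and an NRF1 motif that shares 1 base with the nearest GC box. The TATA box occurred in 12.4% of all windows, the GC box (letters GGGCGG) in 32.7% and the NRF1 motif in 3.74%. An NF-kappaB match, present in 7.25% of windows, was found in Ccr1, in Ccr3 and in 1 of the 3 RefSeq windows of Ccrl2, the one printed. The other 2 windows of Ccrl2, which start from other annotated starts and hold 6 and 7 CpG, had none of the motifs searched. Ccr1 and Ccr3 each also held a PU.1 match (letters GAGGAA), present in 23.3% of windows, and in Ccr3 it overlaps the NF-kappaB match. Ccr3 held the AP-1 motif (letters TGANTCA) as well, present in 6.75% of windows, and the printed window of Ccrl2 held a GC box. The windows of Ccr2 and Cx3cr1 held none of the motifs searched, and the interferon response element, present in 2.98% of windows, was in none of the 6. A match in these letters is a description and not a bound site.

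Levels of different genes were compared per length, as CPM per kb of exon. In WT UT, Cxcr4 was the most abundant receptor mRNA at 141 ± 6.93 CPM per kb (SD, n = 3), and it made up 66.3% ± 1.71 (SD, n = 3) of the sum over the 7 receptors. Ccr2 followed at 29.4 ± 1.496 and Cx3cr1 at 19.3 ± 0.832, then Ccrl2 at 9.03 ± 0.479, Ccr1 at 8.36 ± 0.144, Ccr7 at 3.27 ± 0.236 and Ccr3 at 2.55 ± 0.158 (CPM per kb, SD, n = 3). No neighbours in this order overlapped between libraries. KO UT had the same order apart from Ccr3, at 3.93 ± 0.436 CPM per kb, and Ccr7, at 2.83 ± 0.215 CPM per kb (SD, n = 3), which changed places.

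After LPS the order was turned over. In WT LPS, Ccrl2 was first at 147 ± 4.22 CPM per kb and made up 62.1% ± 0.834 of the sum, and Ccr1 was second at 56.3 ± 4.03 CPM per kb (SD, n = 3). Cxcr4 was last at 1.14 ± 0.177 CPM per kb, which was 0.479% ± 0.0577 of the sum (SD, n = 3). Between them stood Cx3cr1 at 12.2 ± 0.576, Ccr2 at 8.41 ± 1.05, Ccr3 at 6.53 ± 0.371 and Ccr7 at 5.57 ± 0.859 CPM per kb (SD, n = 3), and only Ccr3 and Ccr7 overlapped. KO LPS had the same order, with Ccrl2 at 113 ± 2.61 CPM per kb and a share of 53.7% ± 0.843, and there Ccr3 and Ccr7 did not overlap. The sum over the 7 receptors went from 213 ± 5.06 to 238 ± 9.58 CPM per kb in WT and from 187 ± 3.44 to 209.9 ± 1.62 in KO (SD, n = 3).

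**Figure D1:**
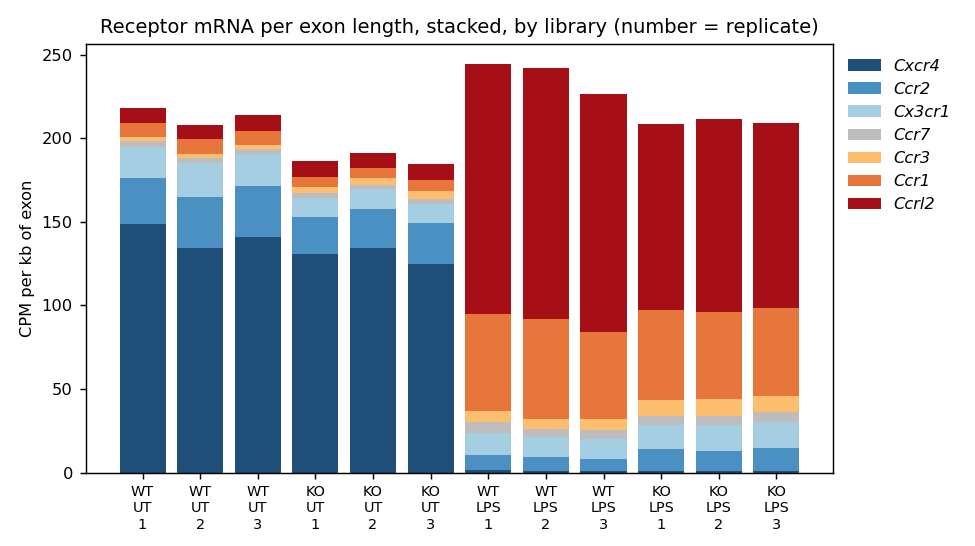
Stacked bars give the CPM per kb of exon of the 7 receptors in each of the 12 libraries, labelled by group and replicate. Cxcr4 fills most of each UT bar (66.3% on average in WT UT) and Ccrl2 most of each LPS bar (62.1% in WT LPS and 53.7% in KO LPS).

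The response to LPS was tested within each genotype. A call needed an absolute log2 fold change above 1 and, adjusted over all 15523 genes, an edgeR p below 0.05. In WT, 5 of the 7 receptors were called, 3 higher and 2 lower, where 37.8% of all genes tested were called, at 19.1% up and 18.7% down. In KO, 4 of the 7 were called, 3 higher and 1 lower, where 37.0% of all genes were called, at 17.7% up and 19.3% down. Past the adjusted p threshold at any size of change were all 7 receptors in each genotype, as were 73.3% of genes in WT and 72.8% in KO. The libraries of the 2 treatments did not overlap for any of the 7 receptors in either genotype, which held for 74.8% of genes in WT and 76.0% in KO. In RNA from a whole culture, fewer cells of a kind and less RNA per cell cannot be told apart.

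Cxcr4 (ENSMUSG00000045382.6, chromosome 1, 128588199 to 128592293, protein coding), the receptor of CXCL12, was at 268, 243 and 255 CPM in WT UT and at 2.38, 2.06 and 1.74 CPM in WT LPS. In KO it was at 236, 243 and 225 CPM without LPS and at 1.92, 1.99 and 1.65 CPM with it. All 6 LPS libraries lay far below all 6 UT libraries, and the counts behind the LPS values were between 37 and 64. The fall was 122-fold in WT (log2 change -6.93, SE 0.0925, edgeR adjusted p 8.68e-24) and 127-fold in KO (-6.98, SE 0.0925, edgeR adjusted p 7.06e-24). Among the 9589 genes that averaged 5 CPM or more, a lower log2 fold change was seen for only 2 in WT and 2 in KO.

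Ccr2 (ENSMUSG00000049103.13, chromosome 9, 124101950 to 124113557, protein coding), the receptor of the monocyte chemoattractants, was at 187, 204 and 205 CPM in WT UT and at 64.1, 56.5 and 49.96 CPM in WT LPS. The KO values were 149, 157 and 168 CPM without LPS and 86.6, 81.2 and 94.0 CPM with it. The LPS libraries were the lower ones in each genotype, and the step was deeper in WT. Ccr2 fell 3.49-fold in WT (log2 change -1.80, SE 0.0794, edgeR adjusted p 6.89e-15) and was 1.81-fold lower in KO (-0.86, SE 0.0769, edgeR adjusted p 1.68e-09). The KO value missed the fold change minimum, which it passed under upper-quartile scaling (-1.04) and with the small RNA share as a covariate (-1.39).

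Cx3cr1 (ENSMUSG00000052336.6, chromosome 9, 119901616 to 120069879, protein coding), the fractalkine receptor, was at 83.5, 90.9 and 86.4 CPM in WT UT and at 58.0, 53.1 and 54.0 CPM in WT LPS. In KO it was at 52.6, 53.7 and 50.9 CPM without LPS and at 66.5, 70.5 and 69.4 CPM with it. It thus stood lower after LPS in WT and higher after LPS in KO. The log2 fold changes were -0.66 in WT (SE 0.0563, edgeR adjusted p 7.45e-10) and 0.39 in KO (SE 0.0564, edgeR adjusted p 2.24e-06), both past the adjusted p threshold and neither past the fold change minimum. The annotated body of Cx3cr1 spans 5 other genes of the count table, Wdr48, Gorasp1, Ttc21a, Csrnp1 and Xirp1. How reads shared by overlapping genes were counted is not given in the sources used here, so its count is uncertain.

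Ccr7 (ENSMUSG00000037944.8, chromosome 11, 99144196 to 99155077, protein coding), the receptor for CCL19 and CCL21, was low throughout, at 6.99, 6.13 and 6.25 CPM in WT UT and 12.9, 9.70 and 10.4 CPM in WT LPS. The KO libraries gave 5.58, 5.17 and 6.02 CPM without LPS and 10.1, 10.4 and 11.4 CPM with it. The LPS libraries were above the UT libraries in both genotypes. The log2 fold changes were 0.78 in WT (SE 0.118, edgeR adjusted p 4.47e-06) and 0.93 in KO (SE 0.120, edgeR adjusted p 5.48e-07), so neither was called. With the small RNA share as a covariate the values were 1.02 in WT and 0.48 in KO (edgeR adjusted p 0.15), so this receptor depended on that choice. The summed level of 6 dendritic cell markers was 21.4 to 25.2 CPM in the UT libraries and 41.1 to 49.5 CPM in the LPS libraries. Most of the difference was in Fscn1, the gene of fascin (5.39 to 23.4 CPM on average in WT and 4.82 to 23.9 in KO), whereas Itgax went from 15.8 to 16.8 CPM in WT and from 16.3 to 21.2 CPM in KO. Of the markers of low level, Clec9a was called higher in both genotypes (1.21 and 1.44), Zbtb46 was called higher in WT (1.08), Cd209a was called lower in both (-1.70 and -1.15) and Flt3 was not called. None of the 6 was at or under 3 counts throughout a group, and their part in the level of Ccr7 was not tested.

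The 3 remaining receptors rose with LPS in both genotypes. Ccr1 (ENSMUSG00000025804.4, chromosome 9, 123962124 to 123968692, protein coding), a receptor for CCL3 and CCL5, was at 23.9, 24.0 and 23.2 CPM in WT UT and at 163, 169 and 147 CPM in WT LPS. KO cells had 18.2, 18.5 and 19.6 CPM without LPS and 152, 148 and 148 CPM with it. Every LPS library was above every UT library. The rise was 6.73-fold in WT (log2 change 2.75, SE 0.0616, edgeR adjusted p 4.03e-20) and 7.96-fold in KO (2.99, SE 0.0634, edgeR adjusted p 1.34e-20).

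Ccr3 (ENSMUSG00000035448.8, chromosome 9, 124021972 to 124031689, protein coding), best known as the eotaxin receptor of eosinophils, was at 7.86, 8.89 and 8.31 CPM in WT UT and at 22.4, 20.0 and 21.6 CPM in WT LPS. The KO values were 11.6, 12.5 and 14.4 CPM without LPS and 32.1, 32.5 and 32.3 CPM with it. The 4 groups did not overlap, and KO was the higher genotype in each treatment. Ccr3 rose 2.56-fold in WT (log2 change 1.35, SE 0.0879, edgeR adjusted p 6.72e-12) and 2.51-fold in KO (1.33, SE 0.0836, edgeR adjusted p 3.95e-12). The 5 eosinophil markers summed to between 0.766 and 2.16 CPM in any library. Of them Epx and Ear6, the eosinophil peroxidase and a granule ribonuclease, were at or under 3 counts in every library, whereas Siglecf and Prg2 had more than 3 counts in some libraries of each group and Il5ra had at most 5 counts in any library. Prg2 had 8, 10 and 7 counts in WT UT and 23, 25 and 43 in KO UT (log2 fold change 2.15, edgeR adjusted p 0.0029), whereas Siglecf, the other eosinophil marker tested, was at -0.22 (edgeR adjusted p 0.711).

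Ccrl2 (ENSMUSG00000043953.12, chromosome 9, 111054486 to 111057519, protein coding) was at 23.2, 22.4 and 24.8 CPM in WT UT and at 388, 390.0 and 370.3 CPM in WT LPS. In KO it was at 24.3, 22.7 and 24.2 CPM without LPS and at 289, 301 and 288 CPM with it. The genotypes overlapped without LPS and did not overlap after it. The rise was 16.3-fold in WT (log2 change 4.03, SE 0.0621, edgeR adjusted p 8.71e-23) and 12.3-fold in KO (3.62, SE 0.0616, edgeR adjusted p 3.45e-22).

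**Figure D2:**
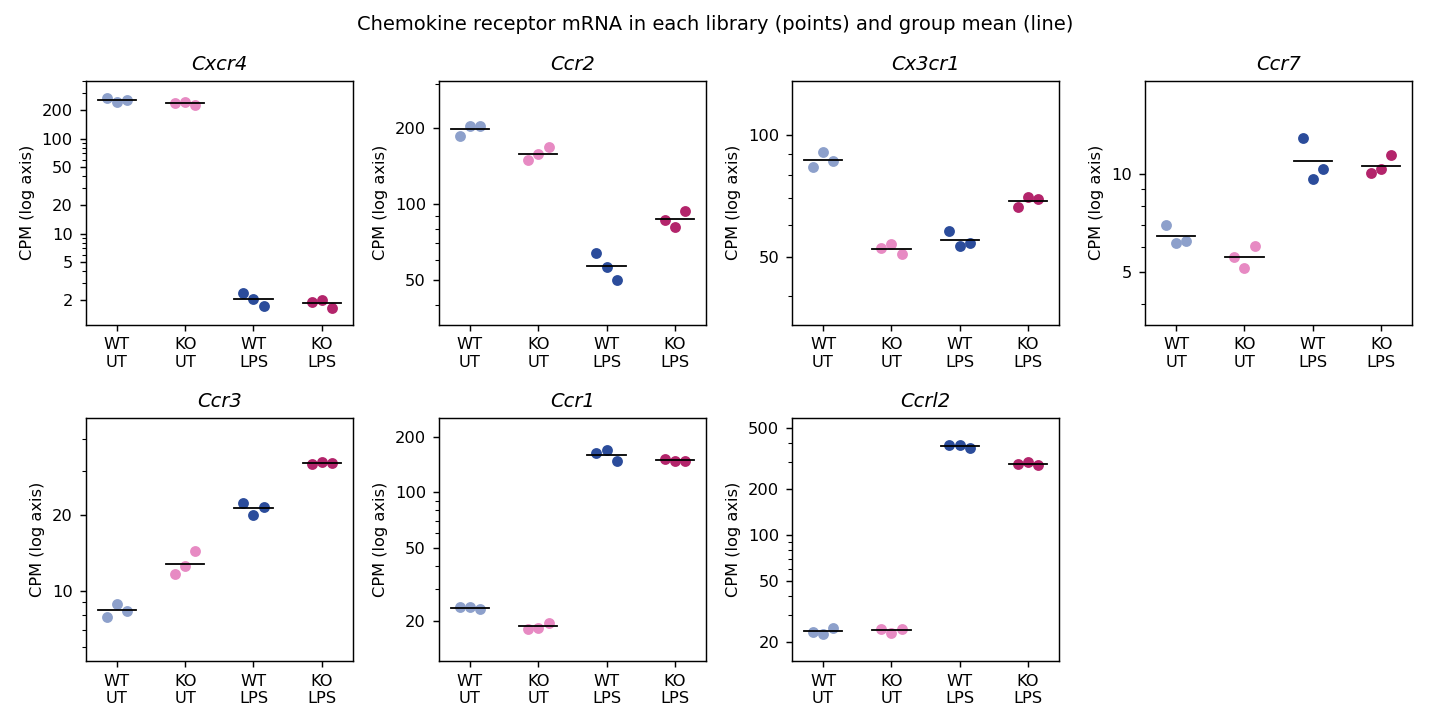
Each panel plots the CPM (log axis, with its own range) of 1 receptor in the 3 libraries of each group as points, with the group mean as a line. Cxcr4 drops from above 225 CPM to below 2.4 CPM in both genotypes, Ccrl2, Ccr1 and Ccr3 rise in both, and the WT and KO points of Cx3cr1 and Ccr2 exchange their order between UT and LPS.

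**Figure D3:**
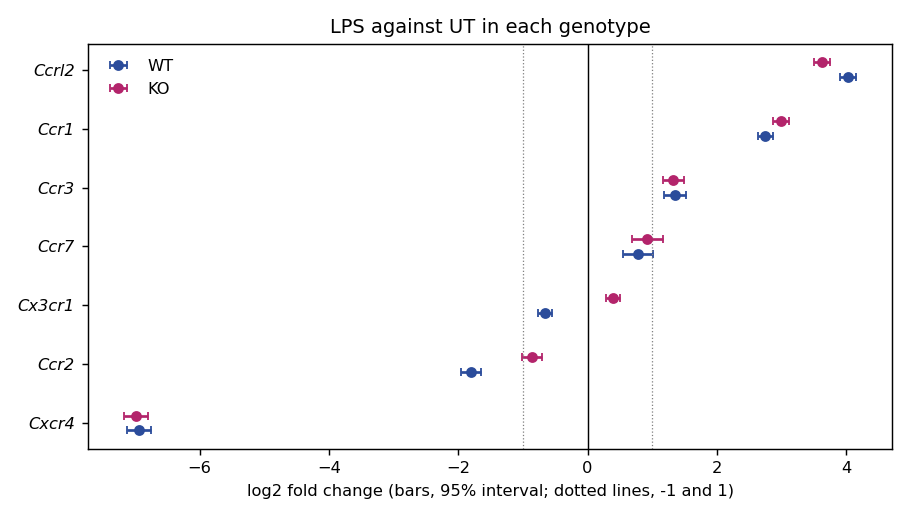
Points give the log2 fold change of LPS against UT for each receptor in WT and KO, with bars of the 95% interval and dotted lines at the fold change minimum. The receptors run from Cxcr4 (-6.93 in WT and -6.98 in KO) to Ccrl2 (4.03 and 3.62), and Cx3cr1 lies on different sides of 0 in WT (-0.66) and KO (0.39).

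KO was then compared with WT within each treatment. As a shared genetic background is not assured, the deletion and a difference in background cannot be told apart in these values. Without LPS, 0 of the 7 receptors were called by edgeR, where 1.82% of all genes were called, and DESeq2 also called 0. The adjusted p threshold alone was passed by 4 receptors, 1 higher and 3 lower in KO, and by 23.8% of all genes (14.1% higher and 9.69% lower). Cx3cr1 had the largest difference, lower in KO by 1.66-fold (log2 fold change -0.73, SE 0.0554, edgeR adjusted p 6.66e-09). Ccr1 was lower in KO by 1.26-fold (-0.34, SE 0.0634, edgeR adjusted p 0.00042) and Ccr2 also by 1.26-fold (-0.33, SE 0.0751, edgeR adjusted p 0.00247). Ccr3 was higher in KO by 1.54-fold (0.62, SE 0.0881, edgeR adjusted p 1.99e-05). For 6 of the 7 receptors the KO libraries did not overlap the WT libraries, which held for 40.8% of genes, and Ccrl2 was the exception.

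The other 3 receptors did not pass the adjusted p threshold in UT. The log2 fold change of KO against WT was 0.02 for Ccrl2 (95% interval -0.10 to 0.14, edgeR adjusted p 0.87), -0.12 for Cxcr4 (-0.24 to -0.01, edgeR adjusted p 0.147) and -0.21 for Ccr7 (-0.44 to 0.03, edgeR adjusted p 0.244). Cxcr4 passed it in 3 of 16 alternatives, which were DESeq2 (log2 fold change -0.20, adjusted p 0.0054), RLE scaling (-0.20, edgeR adjusted p 0.0157) and the fit to the compared groups (-0.13, edgeR adjusted p 0.0344). The small RNA share differed between KO UT and WT UT in the same libraries without overlap, so the share and genotype cannot be fully told apart there. With that share as a covariate, Cx3cr1 was at -0.64 (edgeR adjusted p 0.00195) and Ccr3 at 0.87 (edgeR adjusted p 0.00954), while Ccr1 was at -0.09 (edgeR adjusted p 0.768) and Ccr2 turned to 0.24 (edgeR adjusted p 0.338). With protein-coding genes only, the 4 differences were as large as before, at -0.72 for Cx3cr1, -0.33 for Ccr1, -0.32 for Ccr2 and 0.63 for Ccr3.

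Marker sums also differed between the genotypes without overlap in UT. The 8 macrophage markers summed to 28520 to 29560 CPM in WT UT and 32710 to 33820 CPM in KO UT, the 5 eosinophil markers to 0.766 to 0.936 and 1.21 to 1.54 CPM, the 6 neutrophil markers to 2.60 to 3.06 and 3.67 to 5.12 CPM, and the 6 T cell markers to 1.81 to 2.70 and 2.73 to 3.61 CPM. Of the neutrophil markers, Camp, the gene of a granule peptide, had 8 to 12 counts in WT UT and 27 to 35 in KO UT (log2 fold change 2.04, edgeR adjusted p 2.42e-05). Mpo, myeloperoxidase, had 1 to 4 and 11 to 20 counts (2.83, edgeR adjusted p 0.00195), and both were called with a negative interaction term (edgeR adjusted p 0.000476 and 0.0437). Of the other neutrophil markers, Ngp went from 0.587 to 0.996 CPM on average (0.76, edgeR adjusted p 0.23), Ltf was at 0.10 (edgeR adjusted p 0.847), Elane was at 12, 5 and 1 counts in WT UT and 3, 2 and 2 in KO UT, and Ly6g was at or under 3 counts. In CPM, single genes carried the other sums as well. Lyz2 went from 23450 CPM in WT UT to 27340 CPM in KO UT on average. The adjusted p threshold alone was passed by 4 of the 8 macrophage markers higher in KO and by 1 lower. Over all genes the shares were 14.1% and 9.69%. Higher were Cd68 (log2 fold change 0.40), Mertk (0.24), Lyz2 (0.22) and Adgre1 (0.18). Csf1r, the macrophage growth factor receptor, was lower (-0.13, edgeR adjusted p 0.0491). The eosinophil sum rested on Prg2 and the T cell sum on Cd4, which macrophages can also express (1.93 CPM in WT UT and 2.88 CPM in KO UT on average, edgeR adjusted p 0.051). Their part in the UT differences was not tested.

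After LPS, 0 of the 7 receptors were called by edgeR, where 1.25% of all genes were called, and DESeq2 also called 0. The adjusted p threshold alone was passed by 4 receptors, 3 higher and 1 lower in KO, and by 14.3% of all genes (7.78% higher and 6.54% lower). Ccr2 was higher in KO by 1.53-fold (log2 fold change 0.62, SE 0.0793, edgeR adjusted p 2.27e-05) and Ccr3 by 1.51-fold (0.60, SE 0.0828, edgeR adjusted p 5.55e-05). Cx3cr1 was higher in KO by 1.25-fold (0.32, SE 0.0573, edgeR adjusted p 0.000717), and Ccrl2 was lower by 1.31-fold (-0.39, SE 0.0541, edgeR adjusted p 5.72e-05). These 4 receptors were also those whose libraries did not overlap between genotypes, which held for 29.1% of genes. Of the 9589 genes averaging 5 CPM or more, 60 stood above Ccr2 in this log2 fold change and 70 above Ccr3.

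For Cxcr4, Ccr1 and Ccr7 the genotypes overlapped after LPS. The log2 fold changes of KO against WT were -0.17 for Cxcr4 (95% interval -0.46 to 0.12, edgeR adjusted p 0.518), -0.09 for Ccr1 (-0.21 to 0.02, edgeR adjusted p 0.289) and -0.06 for Ccr7 (-0.29 to 0.17, edgeR adjusted p 0.804). With the small RNA share as a covariate, Ccr2 was at 0.35 (edgeR adjusted p 0.00287), Ccr3 at 0.48 (edgeR adjusted p 0.00987), Cx3cr1 at 0.28 (edgeR adjusted p 0.0161) and Ccrl2 at -0.44 (edgeR adjusted p 4.85e-05). Ccr1 passed the adjusted p threshold there (-0.21, edgeR adjusted p 0.0483). The sum of the 6 stromal cell markers also differed with genotype, at 2.07 to 4.29 CPM in WT LPS and 7.13 to 8.49 CPM in KO LPS. Of the 5 that were tested, 4 were called higher in KO after LPS, where 1.25% of all genes were called, and Pdgfra was not (0.62, edgeR adjusted p 0.515). In the UT groups the stromal sum was 3.77 to 4.49 CPM in WT and 4.11 to 5.67 CPM in KO, with Lum at or under 3 counts in both. There 2 of the 5 were called higher in KO, where 1.82% of all genes were called, namely Dcn (1.45, edgeR adjusted p 0.0215) and Pdgfra (1.45, edgeR adjusted p 0.0435). After LPS the eosinophil sum (1.04 to 1.34 CPM in WT and 1.35 to 2.16 CPM in KO), the macrophage sum (24740 to 26240 CPM in WT and 27370 to 29040 CPM in KO) and the dendritic cell sum (41.1 to 43.9 and 45.0 to 49.5 CPM) did not overlap between genotypes either. Lyz2 was at 18510 and 20290 CPM on average there, and Itgax at 16.8 and 21.2 CPM. Of the 8 macrophage markers, 5 passed the adjusted p threshold higher in KO and 0 lower, where 7.78% and 6.54% of all genes did. They were Itgam (0.36), Adgre1 (0.30), Fcgr1 (0.26), Csf1r (0.17) and Lyz2 (0.13). Of the 6 dendritic cell markers only Itgax passed it (0.34, edgeR adjusted p 0.0398), while Fscn1 was at 0.03 and Zbtb46 at -1.19 (edgeR adjusted p 0.0633). The part of these cells in the receptor values was not tested.

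The difference between the 2 LPS responses was tested by the interaction term, which is the log2 fold change of LPS in KO less that in WT. It was called for 1 of the 7 receptors, Cx3cr1, with a positive term, where 2.16% of all genes were called (0.522% with a positive term). The adjusted p threshold alone was passed by 3 receptors, 2 with a positive and 1 with a negative term, and by 16.8% of all genes (7.32% positive and 9.50% negative). The term was 1.05 for Cx3cr1 (SE 0.0797, edgeR adjusted p 3e-08), 0.94 for Ccr2 (SE 0.109, edgeR adjusted p 9.34e-06) and -0.41 for Ccrl2 (SE 0.0807, edgeR adjusted p 0.00133). Thus Cx3cr1 and Ccr2, the monocyte trafficking receptors, ended higher relative to their start in KO than in WT, and Ccrl2 ended lower. Of the 9589 genes averaging 5 CPM or more, 31 stood above Cx3cr1 in this term and 43 above Ccr2. Of the 5 stromal cell markers tested, 2 were called with a positive term and 0 with a negative one. These were Col1a2 (1.38, edgeR adjusted p 0.0124) and Col3a1 (1.855, edgeR adjusted p 0.0168), and their part in the receptor terms was not tested.

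Both treatments contributed to the positive terms, since Cx3cr1 and Ccr2 were lower in KO without LPS and higher in KO after it. With the small RNA share as a covariate the term of Cx3cr1 was 0.92 (edgeR adjusted p 0.00901), no longer past the fold change minimum. The term of Ccr2 was then 0.11 (edgeR adjusted p 0.868) and that of Ccrl2 was -0.56 (edgeR adjusted p 0.103). The share was higher in KO in UT and lower in KO after LPS, without overlap. The covariate and the interaction term thus cannot be fully told apart. Over all genes, 187 passed the adjusted p threshold for the interaction with the covariate and 2611 without it. With protein-coding genes only, the terms were 1.01, 0.90 and -0.45. Without WT LPS replicate 1 the term of Ccr2 was 1.04 and was called, which gave 2 receptors called. Ccr2 was also called in DESeq2 (1.025) and under RLE scaling, with 2 receptors called in each. The term of Ccr1 lay near the adjusted p threshold (0.24, 95% interval 0.08 to 0.41, edgeR adjusted p 0.0564), which it passed in 6 of 21 alternatives, with the lowest adjusted p in DESeq2 (0.32, adjusted p 0.0036), and it was -0.12 with the small RNA share as a covariate (edgeR adjusted p 0.838). No difference in response was detected for Ccr7 (0.15, -0.18 to 0.48, edgeR adjusted p 0.608), Cxcr4 (-0.05, -0.36 to 0.26, edgeR adjusted p 0.877) or Ccr3 (-0.03, -0.26 to 0.21, edgeR adjusted p 0.919).

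**Figure D4:**
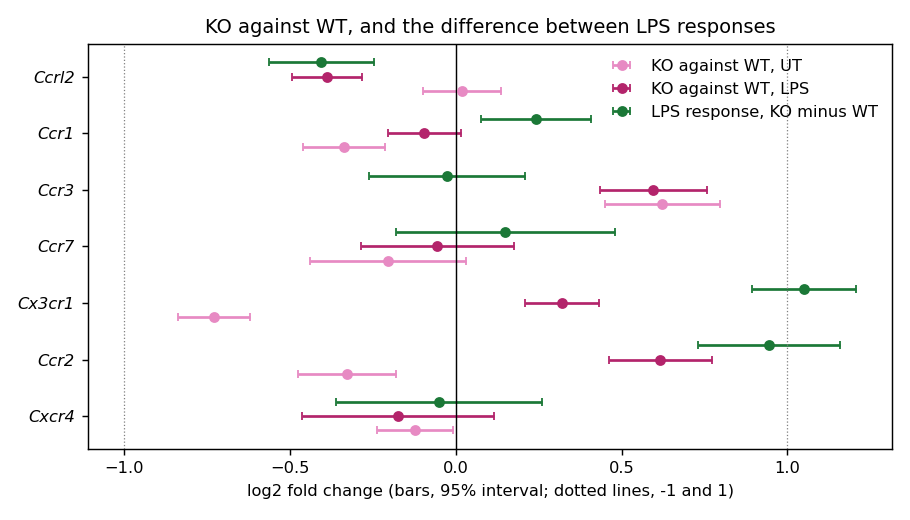
Points give the log2 fold change of KO against WT in UT and after LPS, and the difference between the LPS responses of KO and WT, for each receptor with bars of the 95% interval. Cx3cr1 runs from -0.73 in UT to 0.32 after LPS and Ccr2 from -0.33 to 0.62, whereas Ccr3 is at 0.62 and 0.60.

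Of the 7 receptors, 5 lie on chromosome 9, and Ccr1, Ccr3 and Ccr2 stand in a run of receptor genes. The window from the start of Ccr9 to the end of Ccr2 (123678439 to 124113557) was chosen after the values had been seen. It holds 14 genes of the count table, of which 10 were tested. In WT 7 of the 10 rose with LPS and 1 fell, and that 1 was Ccr2. In KO 8 of the 10 rose and 0 fell past both thresholds. Over all genes the shares were 19.1% up and 18.7% down in WT, and 17.7% and 19.3% in KO, and nothing is read from the difference, since the window was picked on these values. Ccr2 thus moved against Ccr3, the nearest receptor gene before it (1.35 in WT and 1.33 in KO). In the comparisons of genotype and in the interaction 0 of the 10 were called, a count from which nothing can be read, since over all genes the shares were 1.82% in UT, 1.25% after LPS and 2.16% in the interaction. Ccr1 and Ccr1l1 are similar in coding sequence, and how reads that fit both copies were counted is not given in the sources used here. Over the wider span of 14.06 Mb that also takes in Ccrl2, 108 genes were tested. In UT, Itga9, an integrin subunit, and Gm26448 were called higher in KO, and after LPS Gm26448 was called lower. In the interaction Cx3cr1 was the 1 gene of this span called higher, and Gm26448, Gm9888 and Rps27rt were called lower. These are 2, 1 and 4 of the 108 genes, to be read against the same shares over all genes.

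**Figure D5:**
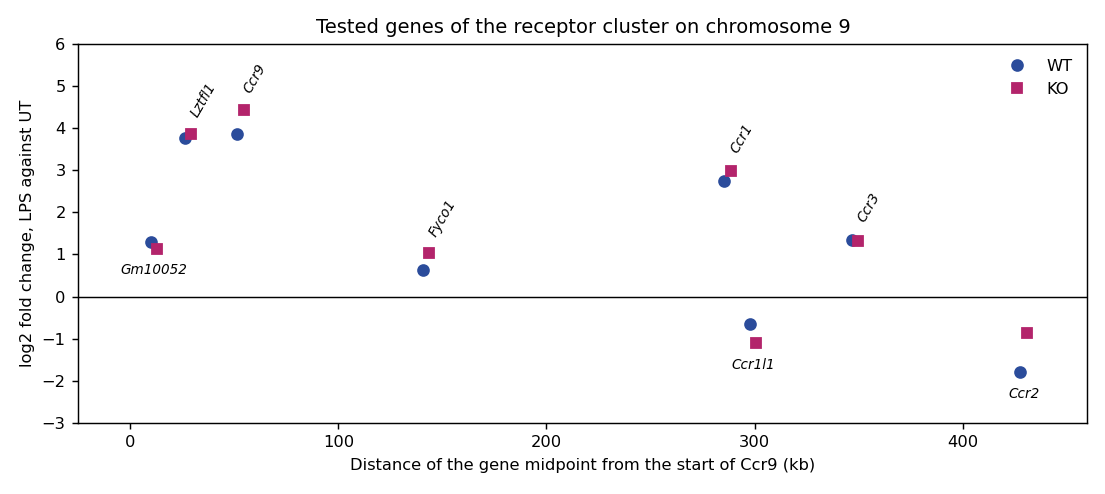
The log2 fold change of LPS against UT in WT (circles) and KO (squares, drawn slightly to the right) is plotted against the distance of each gene's midpoint from the start of Ccr9, in kb. Tested genes of the window are shown except Slc6a20a and Gm17200, which were at or under 3 counts throughout a group. Ccr2, at the right end, lies below 0 (-1.80 and -0.86), and Ccr3 before it lies above 0 (1.35 and 1.33).

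Of 17 other chemokine receptor genes, 4 passed the filter on low counts, and the remaining 13 had at most 18 counts in any library. With LPS, 2 of the 4 rose and 1 fell in each genotype, where the shares over all genes were 19.1% and 18.7% in WT and 17.7% and 19.3% in KO. Cmklr1, the signalling receptor for chemerin, went from 3.78 ± 0.245 to 15.2 ± 1.87 CPM in WT and from 6.14 ± 0.390 to 27.9 ± 2.72 CPM in KO (SD, n = 3). Ccr9, the receptor for CCL25, rose from 0.174 ± 0.113 to 2.53 ± 0.357 CPM in WT (SD, n = 3, log2 fold change 3.86), and its annotated body spans other genes, so its count is uncertain. Cxcr3, which binds the interferon-induced CXC chemokines, fell from 4.12 ± 0.838 to 1.00 ± 0.186 CPM in WT (SD, n = 3, log2 fold change -2.02) and by 2.47 on the log2 scale in KO. Ccr1l1 was not called (log2 fold change -0.65 in WT and -1.11 in KO, edgeR adjusted p 0.328 and 0.0556).

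The chemerin receptors differed between the genotypes in different directions after LPS. Cmklr1 was higher in KO, with a log2 fold change of 0.88 (SE 0.0989, edgeR adjusted p 4.8e-06), whereas Ccrl2 was lower (-0.39). Without LPS Cmklr1 was also higher in KO (0.70, SE 0.117, edgeR adjusted p 0.000118). None of these passed the fold change minimum.

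The ligands of the receptors were read from a list of 16 genes, of which 11 were tested. Of these, 9 rose with LPS in each genotype and 0 fell past both thresholds, where 19.1% and 18.7% of all genes did so in WT and 17.7% and 19.3% in KO. The median log2 fold change over the 11 was 6.50 in WT and 4.24 in KO against 0.05 and -0.06 over all genes. Among the ligands of CCR1, Ccl3 rose from 10.3 ± 0.782 to 1498 ± 131 CPM and Ccl5 from 6.66 ± 0.691 to 1517 ± 87.2 CPM in WT (SD, n = 3), and Ccl9 from 946 ± 7.89 to 7177 ± 175 CPM. Among those of CCR2, Ccl2 rose from 2.76 ± 0.356 to 344 ± 28.5 CPM and Ccl7 from 1.10 ± 0.191 to 365 ± 34.5 CPM in WT (SD, n = 3). Ccl12 and Ccl8 rose by 7.91 and 6.50 on the log2 scale in WT. The receptor Ccr2 was thus lower in the libraries in which these ligands were higher, while Ccr1, Ccl3, Ccl5 and Ccl9 were higher together.

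Ccl24, an eotaxin that binds CCR3, rose from 0.303 ± 0.0530 to 5.49 ± 0.281 CPM in WT (SD, n = 3, log2 fold change 4.16), and Cx3cl1, the ligand of CX3CR1, rose in WT (log2 fold change 1.65) and KO (1.61). Cxcl12, the ligand of CXCR4, did not exceed 39 counts and was not called with LPS (log2 fold change -1.25 in WT, edgeR adjusted p 0.0701). Ccl6, also a ligand of CCR1, was near 100 CPM in every group and was not called (0.06 in WT, edgeR adjusted p 0.287, and -0.17 in KO, edgeR adjusted p 0.00634). Ccl19 and Ccl21a, the ligands of CCR7, and the eotaxins Ccl11 and Ccl26 had 0 counts in every library, and Rarres2, the gene of chemerin, had at most 7.

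Between genotypes in UT, 1 of the 11 ligands was called, where 1.82% of all genes were. Ccl8 had 0, 2 and 9 counts in WT UT and 20, 15 and 18 in KO UT (log2 fold change 2.54, SE 0.537, edgeR adjusted p 0.00126), and its interaction term was -2.26 (edgeR adjusted p 0.00999). After LPS 0 of the 11 were called, where 1.25% of all genes were. In UT the adjusted p threshold alone was passed by 4 of the 11 and by 23.8% of all genes, with Ccl7 (0.57, edgeR adjusted p 0.0392), Ccl8 and Ccl9 (0.19, edgeR adjusted p 0.00358) higher in KO and Ccl5 lower (-0.40, edgeR adjusted p 0.0122). After LPS it was passed by 4 of the 11 and by 14.3% of all genes. Ccl2 (-0.50, edgeR adjusted p 0.000847), Ccl3 (-0.46, edgeR adjusted p 2.83e-05) and Ccl7 (-0.29, edgeR adjusted p 0.0236) were lower in KO after LPS, and Ccl9 was higher (0.16, edgeR adjusted p 0.0203). In the interaction it was passed by 5 of the 11 and by 16.8% of all genes, with a positive term for Ccl5 (0.49) and negative terms for Ccl3 (-0.44), Ccl6 (-0.23), Ccl7 (-0.87) and Ccl8.

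Downstream of the receptors, 20 genes for G protein subunits, arrestins, receptor kinases and their effectors were all tested. In WT 4 rose and 5 fell with LPS, and in KO 5 rose and 4 fell, where 37.8% and 37.0% of all genes were called, with median log2 fold changes of -0.15 and 0.02 against 0.05 and -0.06 over all genes. The largest increases in WT were in Pik3r5, the regulatory subunit of phosphoinositide 3-kinase gamma (1.69), Rac2, a GTPase of leukocyte migration (1.33), and Vav1, an exchange factor for such GTPases (1.28). The largest decreases were in Arrb1, the gene of beta-arrestin 1 (-2.21), Plcb2, a phospholipase C beta (-2.13), and Gng2, a G protein gamma subunit (-1.81). Between genotypes 0 of the 20 were called in either treatment, where 1.82% of all genes were called in UT and 1.25% after LPS. In UT the adjusted p threshold alone was passed by 2 of the 20 higher in KO and by 5 lower, where the shares over all genes were 14.1% and 9.69%. It was passed by 7 of the 20 after LPS, all higher in KO, as it was by 14.3% of all genes (7.78% higher). In the interaction it was passed by 7, all with a positive term, and by 16.8% of all genes (7.32% positive).

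Genes nearest in pattern to each receptor were found by the root mean square (RMS) difference of log2 CPM over the 12 libraries, each gene centred on its own mean, among 9078 protein-coding genes averaging 5 CPM or more. The values describe likeness only, over libraries that share the LPS contrast. Cxcr4 was nearest to St6gal1 (RMS 0.33), a sialyltransferase, then Arhgap19 and Fam214a. St6gal1 fell from 92.8 to 1.21 CPM on average in WT. Ccrl2 was nearest to Rcl1 (0.11), Dtx2 and Tnip3, and Ccr1 to Fam102b (0.08), H2-T22 and Pcgf5. Ccr7 had the closest neighbour of all, Acvr1 (0.07), an activin receptor kinase, followed by Gatad2a and Rassf4.

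Ccr2 was nearest to Rmnd5a (0.12), and Kifap3 was also close to it (0.13). Their log2 fold changes with LPS were -1.58 and -1.73 in WT and -1.04 and -0.97 in KO. Cx3cr1 was nearest to Tiam1 (0.15), an exchange factor for Rac, then Dock8 and Cpt1a, whose LPS log2 fold changes in WT were -0.61, -0.35 and -0.46 and in KO 0.03, 0.16 and 0.25. Ccr3 was nearest to Hsd17b12 (0.14), Ctla2a and Slc7a7. Within the 7 receptors the nearest pair was Ccr3 and Ccr7 (0.46), followed by Ccr1 and Ccrl2 (0.51), and the farthest was Cxcr4 and Ccrl2 (5.38).

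Marker sums of some other cells also differed with treatment. The 5 monocyte markers summed to 45.3 to 54.2 CPM in the UT libraries and 331 to 388 CPM in the LPS libraries. Most of that difference was in Hp, the acute-phase gene of haptoglobin, which went from 2.75 to 251 CPM on average in WT, while Ifitm6 went from 44.4 to 98.6, Ly6c2 from 1.76 to 12.2 and Plac8 from 2.91 to 8.46 CPM, and none of the 5 was at or under 3 counts throughout a group. The 6 neutrophil markers summed to at most 5.29 CPM in any library, with Ly6g at or under 3 counts in all 4 groups. The 6 T cell markers summed to between 1.81 and 9.42 CPM, of which Lck made up 6.92 CPM on average in WT LPS, with Cd3e and Cd3g at or under 3 counts in all 4 groups, and the 4 B cell markers to at most 1.79 CPM, with Pax5 at or under 3 counts in all 4 groups. Their part in the receptor values was not tested.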

How the data were processed

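Total RNA libraries of 12 BMDM cultures were analysed, 3 in each of 4 groups. By the methods and processing notes of the study, stranded libraries were made after globin depletion, read from both ends, checked with FastQC 0.11.9, aligned to GRCm38 with HISAT2 2.1.0, handled with SAMtools 1.17 and counted per gene with featureCounts 2.0.0. The authors deposited raw gene counts without scaling. Which annotation release, strand setting and handling of multi-mapping reads they used is not given in the sources used here, so genes that overlap or resemble one another are uncertain.

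Through a GENCODE annotation of GRCm38, 48144 of 48526 identifiers were matched without their version. The filter filterByExpr (at least 10 counts, 15 in total) kept 15523 genes, which held 99.96% of counts. The quasi-likelihood test of edgeR 4.0.16 (R 4.3.3) was run with TMM scaling on a model of the 4 group means fitted to all 12 libraries, with Benjamini-Hochberg adjustment over every gene kept and a common biological coefficient of variation of 0.0712. The thresholds for a call, adjusted p 0.05 and absolute log2 fold change 1, are those of the study. CPM used the scaled library sizes, CPM per kb the summed exon length of the annotation, and log2 CPM a prior count of 2. Intervals of 95% come from the SE of the fit. Values of 3 counts or fewer were treated as the floor, which concerns counting error alone because reads are not independent molecules. The test was checked on simulated data. For figures, matplotlib 3.10.9 was used (Python 3.11.15).

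The receptors, the gene lists and the tests were chosen with earlier results of these data known. Named genes are the 7 receptors, every tested gene of the other receptors and ligands, up to 3 called increases and 3 called decreases of the signalling list, the 3 nearest genes in pattern, called neighbours from 500000 bases before to 500000 after Ccr1, Ccr2, Ccr3 and Ccrl2, and Tnf. Listed genes under the filter are named where their counts bear on a ligand or receptor. Markers of macrophages, monocytes, dendritic cells, eosinophils, neutrophils, T cells, B cells and stromal cells were summed. Named outside this rule, after their values had been seen, were genes that overlap Cx3cr1, single markers, and Slc6a20a and Gm17200. Some genes that these rules would name are not reported here and were left out of the lists. Small structured RNAs were the annotated snRNA, snoRNA, scaRNA, misc_RNA, ribozyme and rRNA genes.

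The batch number follows the replicate number, and whether it marks libraries that were handled together was not established. Deviations from group means were, as a check, correlated in the 18 pairs of one number, with r from -0.0631 to 0.0373 and 0 pairs above 0.1. Replicates of a group differed by at least 3.73 chi-square units per degree of freedom, so none was merged with another. The alternatives tried were DESeq2 1.42.0, RLE or upper-quartile scaling, TMM without the 10 most-counted genes, no filter, a minimum mean of 1 CPM, a replicate block, fits to the compared groups, protein-coding genes only, the small RNA share as a covariate, no fold change minimum, and leaving out each library.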

Additional observations from a re-analysis of the deposited data

Results flagged for a closer look

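The LPS responses of the genotypes differed past the adjusted p threshold for 3 of the 7 receptors by the interaction test of edgeR, where 16.8% of all genes did. Cx3cr1 was also past the fold change minimum. The difference is given as the log2 fold change of LPS in KO minus that in WT. For Cx3cr1 the difference was 1.05 (SE 0.0797, edgeR adjusted p 3e-08), with log2 fold changes of -0.66 in WT and 0.39 in KO, and with the small RNA share as a covariate it was 0.92 (edgeR adjusted p 0.00901), no longer past the fold change minimum. For Ccr2 it was 0.94 (SE 0.109, edgeR adjusted p 9.34e-06), with -1.80 in WT and -0.86 in KO, and with the covariate it was 0.11 (edgeR adjusted p 0.868). For Ccrl2 it was -0.41 (SE 0.0807, edgeR adjusted p 0.00133), with 4.03 in WT and 3.62 in KO, and with the covariate it was -0.56 (edgeR adjusted p 0.103). The covariate and the interaction cannot be fully told apart, since the share differed between genotypes in opposite directions in UT and after LPS. Groups of 3 libraries are too small for a test of single outlying libraries, and none was made.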

How the results depend on the processing

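Of 630 values of single receptors under the alternatives, 588 kept their direction and their call by both thresholds together, 21 passed both newly, 1 no longer passed both and 20 changed sign. Among the 588 are values that crossed the adjusted p threshold alone. With the small RNA share as a covariate these were Ccr7 for LPS in KO (adjusted p 0.15), Ccr1 in UT (0.768), Ccr1 after LPS (0.0483), and Ccr2 (0.868) and Ccrl2 (0.103) in the interaction. Under other alternatives they were Cxcr4 in UT in 3 of 16 and Ccr1 in the interaction in 6 of 21. The count of called receptors moved in these cases. With the small RNA share as a covariate it was 6 for LPS in WT and 5 in KO (35% and 29.1% of all genes called), and under upper-quartile scaling 5 for LPS in KO (38.4% of all genes). Without a fold change minimum it was 7 for LPS in each genotype, 4 for KO against WT in UT, 4 for KO against WT after LPS and 3 for the interaction, where the shares of all genes were 73.3% for LPS in WT, 72.8% in KO, 23.8%, 14.3% and 16.8%. For the interaction it was 2 under RLE scaling (1.98% of all genes), 2 in DESeq2 (2.22%) and 0 with the small RNA share as a covariate (0.271%), and 1 to 2 when single libraries were left out, with 2 only without WT LPS replicate 1, where Ccr2 was added. For the other comparisons leaving out 1 library did not move the count. All 20 sign changes were in comparisons of genotype, at values that were not called. For KO against WT in UT they were Ccr2 (0.24) and Ccr7 (0.26) with the covariate, and Ccrl2 under RLE scaling (-0.0548), upper-quartile scaling (-0.0039), DESeq2 (-0.0547) and without WT UT replicate 2 (leave-one-out range -0.0153 to 0.0608). After LPS it was Ccr7 without WT LPS replicate 1 (range -0.14 to 0.0817). For the interaction they were Cxcr4 under RLE scaling (0.0294), the covariate (0.0434), DESeq2 (0.0281) and without WT LPS replicate 1 or KO LPS replicate 3 (range -0.15 to 0.0781), Ccr1 (-0.12) and Ccr7 (-0.54) with the covariate, and Ccr3 under RLE scaling (0.0531), no filter (0.0039), DESeq2 (0.0530) and without WT UT replicate 1, KO UT replicate 3 or WT LPS replicate 1 (range -0.0884 to 0.0684). The causes were not tested. Upper-quartile scaling moved the median of all genes from 0.05 to -0.14 for LPS in WT and from -0.06 to -0.24 in KO. With the replicate block 1 receptor was called in the interaction (Cx3cr1, 1.05, edgeR adjusted p 1.09e-06) and the block changed no call. Depth limits Cxcr4 after LPS and the lowly counted ligands.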
